A study of Homo sapiens with 4 samples.

Results

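The 10 genes described here, PRCC, ASPSCR1, SFPQ, NONO, CLTC, MED15, RBM10, DVL2, PARP14 and LUC7L3, are genes with which TFE3 is fused in renal cell carcinoma and related tumours. They were taken by name, with earlier results of these data known, from the 33886 gene symbols to which the transcripts of the tables could be assigned. All 4 libraries came from HK-2, a line of human renal proximal tubule cells immortalised with papillomavirus genes, and all carried a Tet-On 3G construct encoding HA-tagged PRCC-TFE3. The 2 Doxy(-) libraries came from cells kept without doxycycline, and the 2 Doxy(+) libraries from cells given 0.2 microg/ml of the drug over 24 h. The labels do not say whether the cells were a clone or a pool, nor whether the numbers 1 and 2 mark separate cultures, so p-values measure only the spread between these samples, which may be technical. HK-2 cells without the construct were not analysed here, so the drug's own effect and that of PRCC-TFE3 cannot be told apart.

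A TFE3 fusion joins the front part of a partner protein to the DNA-binding and dimerisation part of TFE3, a transcription factor of the MiT/TFE family that reads E-box motifs in genes of lysosomes and autophagy. The fusion gene is transcribed from the promoter of the partner, so the activity of that promoter in a cell bears on how much of the fusion transcript is made. The partners themselves are a mixed group, including proteins of RNA processing (SFPQ, NONO, RBM10, LUC7L3 and PRCC), a coactivator subunit (MED15), a Wnt signalling protein (DVL2), a coat protein of vesicles (CLTC), a tether of transport vesicles (ASPSCR1) and an ADP-ribosyltransferase (PARP14).

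The estimated counts of a library summed to between 14042545 and 16618401, of which between 9.66% and 9.89% lay on identifiers that could not be assigned to a gene. Of 16 renal epithelial markers, 8 reached 1 TPM in every library (TPM is a transcript abundance scaled for length and library size), including PAX8, KRT8, KRT18 and VIM, while the proximal tubule markers LRP2 and AQP1 had at most 1 count in any library. Summed over that list the level was 3145 and 3143 TPM in Doxy(-) against 2604 and 2621 TPM in Doxy(+), with 2 of its 10 tested members higher and 5 lower, beside 9.81% and 9.59% of all genes tested. Of 12 markers of other cell types, 4 had no count in any library (CD3E, CDH5, UMOD and AQP2), and the list summed to 177 and 189 TPM in Doxy(-) and to 239.6 and 240.2 TPM in Doxy(+). Nearly all of the sum for other cell types was CD68, a lysosomal membrane protein that epithelial cells also make. Both tested members of that list rose, CD68 with a log2 fold change of 0.37 (edgeR adjusted p = 0.00203) and the podocyte marker NPHS1 with 3.34 (edgeR adjusted p = 0.0125), the latter from 0.107 to 1.18 CPM on average. The part of either shift in the results below was not tested.

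The sequences to which the later account of DVL2 refers are stretches around the start of 2 partner genes, taken from RefSeq on GRCh38.p14. They are shown because, of the 9 partners with an entry there, only DVL2 and ASPSCR1 had the E-box hexamer CACGTG near an annotated start. The search ran from 250 bases before to 50 bases after the start, and SFPQ, without an entry, was not searched. The capitals mark each hexamer, which reads the same on both strands. The DVL2 stretch covers the 110 bases that end just before the start of the gene, at chr17:7234518-7234627, and is written along the minus strand, on which the gene lies. The ASPSCR1 stretch covers 30 bases across the start, at chr17:81977621-81977650 on the plus strand.
DVL2 promoter: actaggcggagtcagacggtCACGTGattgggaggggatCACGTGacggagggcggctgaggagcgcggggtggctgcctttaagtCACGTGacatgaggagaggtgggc
ASPSCR1 start site: ccggcggcgggtCACGTGagcggaaaatgg

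The first question was how strongly each partner gene is expressed in these cells beside TFE3. Levels are compared between genes in TPM, which corrects for transcript length, summed over the transcripts of a gene. In Doxy(-) cells NONO stood highest with 476 and 566 TPM in the 2 libraries, and RBM10 lowest with 18.9 and 18.3 TPM, so that the means spanned a 28.0-fold range. RBM10 has identical copies among the unassigned identifiers, and with these its mean was 36.8 TPM, which leaves ASPSCR1 as the lowest. Below NONO came its binding partner SFPQ with 288 and 321 TPM, the clathrin heavy chain CLTC with 218 and 224 TPM and LUC7L3 with 121 and 128 TPM. By the mean over all libraries these 4 genes lay above at least 92.2% of the 15868 genes detected in every library, whose median was 13.0 TPM.

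The other 6 partners were within a narrower band. MED15 was read at 59.1 and 59.7 TPM, DVL2 at 49.0 and 47.5 TPM, PRCC at 42.7 and 48.2 TPM and PARP14 at 35.9 and 44.2 TPM. TFE3 itself had 34.9 and 36.5 TPM without doxycycline, and only ASPSCR1, with 27.6 and 23.3 TPM, and RBM10 were below it. Neighbours in this order had separate library values except DVL2 and PRCC, PRCC and PARP14, and PARP14 and TFE3, whose ranges overlapped.

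**Figure D1:**
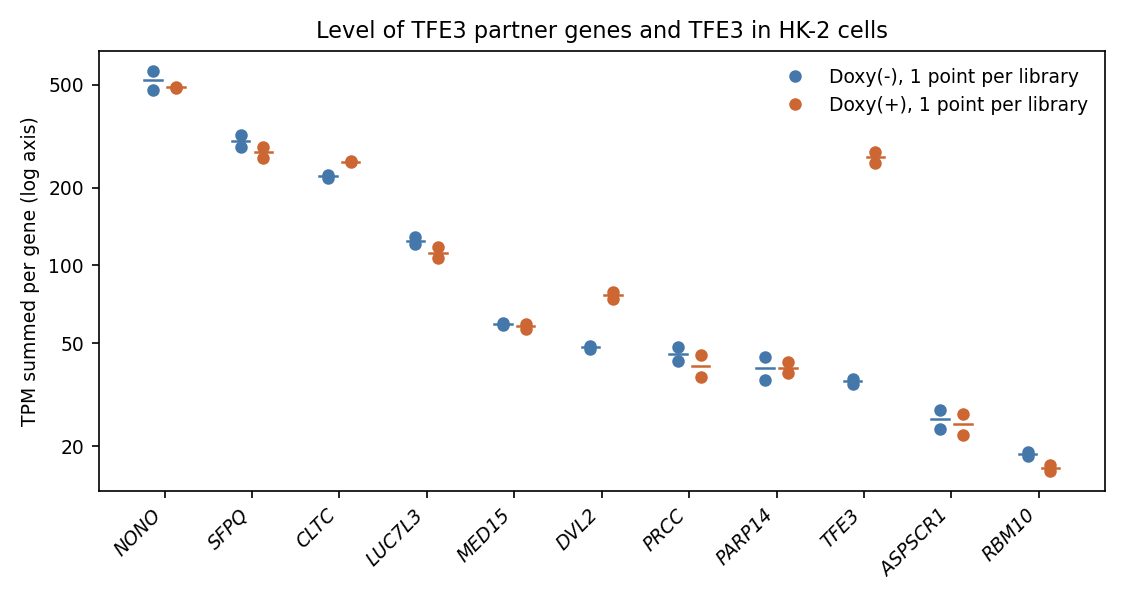
Level of the 10 partner genes and TFE3 in TPM on a log axis, with 1 point per library and a short line at the mean of each group of 2 libraries, ordered by the Doxy(-) mean. NONO, SFPQ, CLTC and LUC7L3 lie above 100 TPM in every library, and TFE3 moves from between 34.9 and 36.5 TPM to between 249 and 276 TPM.

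Set against TFE3 in the same library, 8 of the 10 partner genes were above it in both Doxy(-) libraries, from NONO at 13.6 and 15.5 times TFE3 down to PARP14 at 1.03 and 1.21 times. PRCC, the partner carried by the construct, was at 1.22 and 1.32 times TFE3. In Doxy(+) cells TFE3 rose to 276 and 249 TPM, and NONO, at 1.76 and 1.97 times TFE3, was then the only partner above it in both libraries. The construct also carries TFE3 sequence and has no identifier of its own, so the TFE3 sum does not separate the gene from the construct. The Doxy(+) ratios are therefore not ratios to the TFE3 gene alone. The ratios were 0.948 and 1.15 for SFPQ and 0.916 and 1.01 for CLTC. PRCC was at 0.134 and 0.181 times TFE3 and RBM10 at 0.058 and 0.068 times. With the copies of TFE3 and of the partners added, the Doxy(+) ratios were 0.612 and 0.730 for SFPQ and 0.592 and 0.639 for CLTC, and ASPSCR1, at 0.052 and 0.068, was below RBM10, at 0.075 and 0.086. Meanwhile no partner gene itself moved past a log2 fold change of 1.

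**Figure D2:**
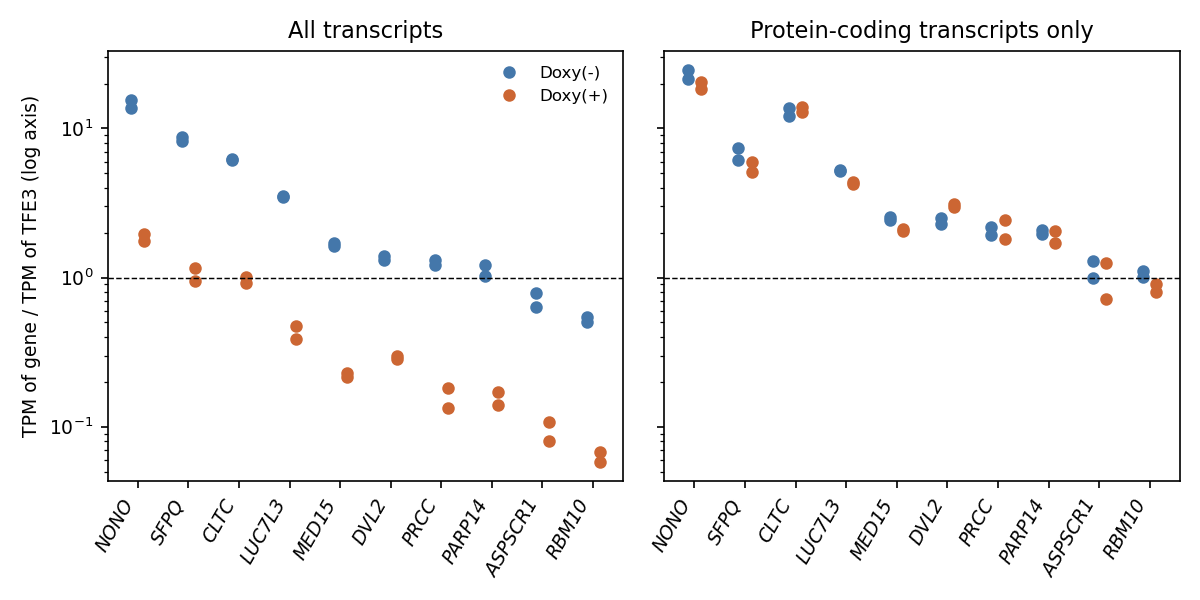
Ratio of the TPM of each partner gene to that of TFE3 in the same library, on a log axis, with Doxy(-) and Doxy(+) libraries in separate colours and a dashed line at equality. Over all transcripts 8 genes lie above TFE3 in Doxy(-) and 1 in Doxy(+), whereas with protein-coding transcripts alone 9 lie above it in Doxy(-) and 8 in Doxy(+).

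The ratio depends on which TFE3 transcripts are counted. The gain of TFE3 lay on 2 transcripts, TFE3-203 (54.3 and 69.8 counts in Doxy(-), 1237 and 1240 in Doxy(+)) and TFE3-204 (338 and 333 counts against 2921 and 2531). The only transcript annotated as protein-coding, TFE3-201, had 464 and 604 counts in Doxy(-) and 551 and 534 in Doxy(+). With protein-coding transcripts alone, 9 partners were above TFE3 in both Doxy(-) libraries and 8 in both Doxy(+) libraries. The annotated type describes transcripts of the gene, and any construct reads placed on TFE3-203 or TFE3-204 are left out of this count. Whether reads of the construct lay there was not tested, so the count does not show that coding TFE3 RNA stayed level. Over the 4 libraries together, the share of a gene's TPM on protein-coding transcripts was 11.7% for TFE3 and 36.7% for SFPQ. For the other 9 partners it was between 67.6% and 97.1%. The share of TFE3 differed between the groups. TFE3-201 held 15.6 and 17.7 of 34.9 and 36.5 TPM in Doxy(-), against 19.0 and 17.6 of 276 and 249 TPM in Doxy(+). With protein-coding transcripts alone CLTC stood above SFPQ, and the choice therefore changes the order as well as the ratios.

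The second question was whether the partner genes change when PRCC-TFE3 is induced. Summed counts were tested with edgeR's quasi-likelihood test and adjusted over all 13542 genes by the Benjamini-Hochberg method, and a gene is said to rise or fall where its adjusted p was under 0.05. All 10 partners were tested, the least covered with 319 counts in a library. DVL2 and CLTC rose, SFPQ and LUC7L3 fell, and the other 6 did not pass, which is 4 of 10 beside 19.4% of all genes tested. DVL2 alone of the 4 also passed when TPM was tested with limma and when counts were rescaled by transcript length, settings in which CLTC, SFPQ and LUC7L3 kept their direction but missed the threshold. None passed the further limit of a log2 fold change of 1, which 1.97% of all genes did. In CPM, counts scaled to the library total, the ranges of the groups did not overlap for 8 of the 10, all but PRCC and PARP14, beside 61.2% of all genes. Their median log2 fold change was -0.06, with 3 values above 0 and 7 below, against 0.00 over all genes. As the RNA was bulk, a change in every cell and a change in the number of cells making a transcript cannot be told apart.

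**Figure D3:**
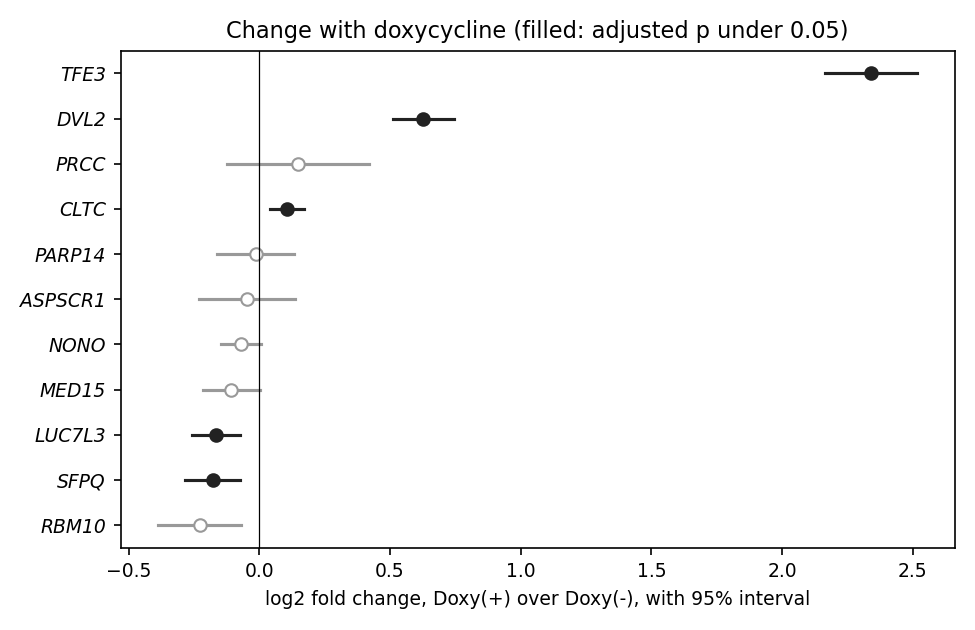
Log2 fold change of each partner gene and TFE3, Doxy(+) over Doxy(-), as points with 95% intervals from the edgeR fit, filled where the adjusted p was under 0.05. DVL2, at 0.63, stands apart from the other 9 partners, which lie between -0.23 and 0.15, and TFE3 is at 2.34.

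DVL2 (ENSG00000004975.12, chr17:7225342-7234517, minus strand) encodes a Dishevelled protein, which passes the Wnt signal from Frizzled receptors to the machinery that stabilises beta-catenin. It read 68.7 and 66.6 CPM in Doxy(-) 1 and 2, against 104.2 and 104.6 CPM in Doxy(+) 1 and 2. Both Doxy(+) values lay above both Doxy(-) values, and the difference exceeded the spread within each group, with 67.6 ± 1.54 CPM (SD, n = 2) against 104 ± 0.299 CPM (SD, n = 2). The log2 fold change was 0.63 (95% interval 0.51 to 0.74, SE 0.0477, edgeR adjusted p = 0.000665), which is 1.54-fold (1.42 to 1.67). Of the 1328 genes that rose, 447 had a larger log2 fold change than DVL2.

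Most DVL2 counts, 78.9%, were on the protein-coding transcript DVL2-201 of 15 exons. It carried 676 and 780 counts in Doxy(-) and 1110 and 1074 in Doxy(+). The higher level of the gene was thus seen on its main transcript, but not there alone. DVL2-212, of 579 nt and annotated as retaining an intron, had 0.04 and 6.25 counts in Doxy(-) and 50.6 and 46.1 in Doxy(+). In TPM it went from 0.009 and 1.26 to 12.1 and 10.5, beside 25.8 and 25.9 to 43.6 and 40.3 for DVL2-201. At the level of single transcripts, 9 of 51663 passed by edgeR (0.0174%), and none of the 64 partner transcripts tested was among them. The common coefficient of variation in the fit was 62.9% for transcripts against 6.47% for genes, so this test could call little. Even TFE3-204, with 338 and 333 counts in Doxy(-) against 2921 and 2531 in Doxy(+), missed the threshold (edgeR adjusted p = 0.121). DVL2-201 had a log2 fold change of 0.67 (edgeR adjusted p = 0.204), which is not evidence that it was unchanged.

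The DVL2 promoter printed above holds 3 E-boxes, and their first bases lie 90, 71 and 24 bases before the annotated start, at chr17:7234602-7234607, chr17:7234583-7234588 and chr17:7234536-7234541. The one nearest the start lies between GT and AC, which makes a longer palindrome that contains the hexamer. The hexamer was present in 7.26% of the 35116 RefSeq windows of 300 bases, 3 or more copies in 33 windows (0.094%), and the longer palindrome in 0.353%. Of the other partners with a window, ASPSCR1 had a single E-box, from base 5 to base 10 after the start, and CLTC, LUC7L3, MED15, NONO, PARP14, PRCC and RBM10 had none of these letters, nor had TFE3. SFPQ had no entry. A match of letters is a description of the sequence, not evidence of binding, and no binding was measured in these libraries.

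**Figure D4:**
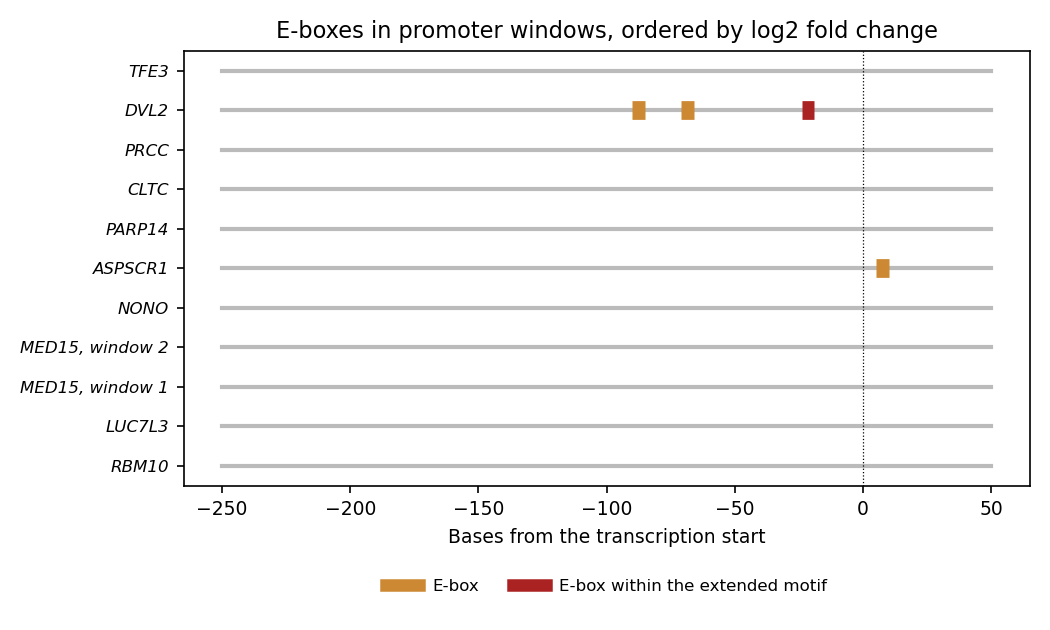
Position of CACGTG hexamers in the RefSeq windows of 9 partner genes and TFE3, by distance in bases from the annotated start, with 1 grey line per window, marks at each hexamer and genes ordered by log2 fold change. DVL2 holds 3 marks before its start, ASPSCR1 holds 1 just after it and the other windows hold none.

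The paralogues of DVL2, are named here after their values had been seen. DVL1 had 80.1 and 78.7 CPM before induction, compared with 63.7 and 59.0 CPM after it, and fell by 0.37 on the log2 scale (95% interval -0.51 to -0.23, edgeR adjusted p = 0.00812). DVL3 was at 158 and 163 CPM against 156 and 160.5 CPM, with a log2 fold change of -0.02 (95% interval -0.12 to 0.08). DVL2 therefore made up 32.4% and 32.2% of the TPM of the 3 Dishevelled genes in Doxy(-) and 45.9% and 46.1% in Doxy(+). On the TPM scale this is a move from below DVL3 to above it, with DVL2-212 counted in the sum.

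Among 22 tested genes of the Wnt pathway other than DVL2, 1 rose and 4 fell, beside 9.81% and 9.59% of all genes, and the median log2 fold change was -0.03. The riser was LRP5, a Wnt co-receptor, with 25.9 and 26.4 CPM in Doxy(-) against 42.2 and 41.0 CPM in Doxy(+) (log2 fold change 0.67, edgeR adjusted p = 0.0014). The receptor FZD7 went the other way, from 32.9 and 33.3 CPM to 21.0 and 20.7 CPM (log2 fold change -0.66, edgeR adjusted p = 0.00222). The other fallers were FZD1, DVL1 and the second co-receptor LRP6. The direction thus differed between members with like roles, with LRP5 higher and LRP6 lower, and DVL2 higher and DVL1 lower.

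CLTC (ENSG00000141367.13, chr17:59619684-59696956, plus strand) encodes the heavy chain of clathrin, which forms the lattice around vesicles that bud from the plasma membrane and the trans-Golgi network. It gave 765 and 775 CPM in uninduced cells against 831 and 828 CPM in induced cells. The groups did not overlap, but the rise of 7.73% was small (log2 fold change 0.11, 95% interval 0.04 to 0.17, edgeR adjusted p = 0.0390). It was lost when either Doxy(+) library was left out, with edgeR adjusted p of 0.242 without Doxy(+) 1 and 0.214 without Doxy(+) 2. An exonic stretch of 244 bases is shared with PTRH2 on the other strand, and PTRH2 had a log2 fold change of 0.09 (edgeR adjusted p = 0.449).

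Of 16 genes of the clathrin coat and its adaptors, 3 rose and 1 fell, beside 9.81% and 9.59% of all genes, with a median log2 fold change of 0.02. The light chain CLTA read 165 and 161 CPM without doxycycline against 192 and 201 CPM with it (log2 fold change 0.27, edgeR adjusted p = 0.0066). GAK, a kinase that helps strip clathrin from vesicles, was at 117 and 114 CPM against 138 and 133 CPM (log2 fold change 0.23, edgeR adjusted p = 0.0150). The other light chain, CLTB, had a log2 fold change of 0.03 (edgeR adjusted p = 0.832). AP2S1, a subunit of the plasma membrane adaptor, also rose, and the endocytic adaptor EPN1 fell.

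SFPQ (ENSG00000116560.12, chr1:35176378-35193446, minus strand) and NONO (ENSG00000147140.17, chrX:71254814-71301522, plus strand) encode RNA-binding proteins of the DBHS family, which dimerise, take part in splicing and transcription and build nuclear paraspeckles. SFPQ had 409 and 414 CPM before induction, compared with 349.6 and 378 CPM after it. It fell by 11.6%, with a log2 fold change of -0.18 (95% interval -0.28 to -0.07, edgeR adjusted p = 0.0356). The Doxy(+) libraries differed more from each other than the Doxy(-) libraries did, and without Doxy(+) 1 the log2 fold change was -0.12 (edgeR adjusted p = 0.200). NONO gave 676 and 694 CPM in uninduced cells against 642 and 662 CPM in induced cells, groups that did not overlap, but it did not pass (log2 fold change -0.07, 95% interval -0.15 to 0.01, edgeR adjusted p = 0.177).

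By TPM the leading SFPQ transcript was SFPQ-206, a transcript of 874 nt annotated as a target of nonsense-mediated decay, with 944 and 1352 counts in Doxy(-) and 877 and 994 in Doxy(+). By counts it was the protein-coding SFPQ-201, with 3768 and 4064 counts against 3094 and 3479. For NONO both measures gave the protein-coding NONO-202. Of 9 tested paraspeckle genes none rose and 2 fell, against 9.81% and 9.59% over all genes, with a median log2 fold change of -0.08. These were HNRNPK, with a log2 fold change of -0.14 (edgeR adjusted p = 0.0162), and the polyadenylation factor subunit NUDT21, with -0.13 (edgeR adjusted p = 0.0488). PSPC1, the third DBHS protein, had -0.01 (edgeR adjusted p = 0.929), and the architectural RNA NEAT1 was not among the assigned identifiers.

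LUC7L3 (ENSG00000108848.16, chr17:50719565-50756219, plus strand) encodes a protein related to yeast Luc7p, which acts with the U1 particle in the choice of splice sites at the start of introns. It read 151 and 153 CPM without doxycycline against 135 and 136 CPM with it, with little spread in either group. It fell by 10.8% (log2 fold change -0.17, 95% interval -0.26 to -0.07, edgeR adjusted p = 0.0302). Leaving out Doxy(-) 2, Doxy(+) 1 or Doxy(+) 2 ended the call, with edgeR adjusted p of 0.0609, 0.192 and 0.151. Its paralogues did not pass, with log2 fold changes of -0.15 for LUC7L and -0.02 for LUC7L2.

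RBM10 (ENSG00000182872.16, chrX:47145221-47186813, plus strand) encodes a splicing regulator that promotes exon skipping. It had 38.0 and 39.9 CPM before induction, compared with 32.6 and 34.0 CPM after it. The groups did not overlap, and its log2 fold change of -0.23 was the most negative of the 10, but the value missed the threshold (95% interval -0.39 to -0.07, edgeR adjusted p = 0.0605). A further 4 identifiers without an annotation entry had the length and the counts of RBM10 transcripts and together held 486 and 583 counts in Doxy(-) and 419 and 457 in Doxy(+), about as many as the gene itself. With these copies added it passed (log2 fold change -0.22, edgeR adjusted p = 0.0402), and its mean level was 36.8 TPM in Doxy(-) and 33.0 TPM in Doxy(+). Counted in this way RBM10 lies above ASPSCR1 in the order of levels. Its relatives RBM5 and RBM6 had log2 fold changes of 0.03 and 0.07 and did not pass.

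Among 14 genes of the early spliceosome, none rose and 2 fell, where 9.81% and 9.59% of all genes did, with a median log2 fold change of -0.07. U2AF1, which binds the end of introns, gave 93.2 and 93.0 CPM in uninduced cells against 76.1 and 75.2 CPM in induced cells (log2 fold change -0.30, edgeR adjusted p = 0.00758). The splicing factor SRSF1 was at 321 and 339 CPM against 291 and 288 CPM (log2 fold change -0.19, edgeR adjusted p = 0.0191). For both genes the libraries of the groups were separate in CPM, as they were for 61.2% of all genes tested.

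MED15 (ENSG00000099917.17, chr22:20495913-20587632, plus strand) encodes a subunit in the tail of Mediator, the complex that links transcription factors to RNA polymerase II. It read 113 and 116 CPM without doxycycline against 109 and 104 CPM with it, and did not pass (log2 fold change -0.11, 95% interval -0.22 to 0.00, edgeR adjusted p = 0.157). Of 31 other Mediator genes tested, 1 rose and none fell, beside 9.81% and 9.59% of all genes, with a median log2 fold change of -0.03. This was MED28, with 71.9 and 66.3 CPM before induction and 83.8 and 82.8 CPM after it (log2 fold change 0.27, edgeR adjusted p = 0.0247). Next by p came CCNC, the cyclin of the kinase module, with a log2 fold change of 0.17 (edgeR adjusted p = 0.0873).

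PARP14 (ENSG00000173193.15, chr3:122680839-122730840, plus strand) encodes a macrodomain ADP-ribosyltransferase known as a cofactor of STAT6. It had 189 and 209 CPM before induction, compared with 191 and 204 CPM after it, and the Doxy(+) values lay inside the Doxy(-) range. Its log2 fold change was -0.01 (95% interval -0.16 to 0.13, edgeR adjusted p = 0.903). Among its relatives, the ADP-ribosyltransferase PARP8 rose, with a log2 fold change of 0.40 (edgeR adjusted p = 0.0125). PARP9 also rose, and PARP2 and PARP12 fell.

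ASPSCR1 (ENSG00000169696.16, chr17:81976807-82017406, plus strand) encodes a UBX-domain protein, also called TUG, that binds the p97 ATPase and holds GLUT4 vesicles inside the cell. It read 25.2 and 26.3 CPM without doxycycline against 24.8 and 25.1 CPM with it. The log2 fold change was -0.05 (95% interval -0.23 to 0.14, edgeR adjusted p = 0.720), so an increase of the size seen in DVL2 lay outside its interval. Among 13 other tested genes of p97 and its cofactors, 1 rose and none fell, beside 9.81% and 9.59% of all genes. This was FAF1, at 12.1 CPM in both Doxy(-) libraries and at 15.6 and 16.7 CPM in Doxy(+) (log2 fold change 0.42, edgeR adjusted p = 0.0372), and UBXN4 came next with 0.15 (edgeR adjusted p = 0.0591).

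PRCC (ENSG00000143294.15, chr1:156750610-156800815, plus strand) encodes a proline-rich nuclear protein linked to splicing, and it is the partner present in the construct. It had 50.2 and 47.2 CPM before induction, compared with 47.7 and 60.1 CPM after it. Only Doxy(+) 2 lay above the Doxy(-) libraries, and the groups overlapped. The log2 fold change was 0.15 (95% interval -0.12 to 0.42, SE 0.112, edgeR adjusted p = 0.412), and without Doxy(+) 2 it was -0.03. On the TPM scale the 2 uninduced libraries read 42.7 and 48.2, and the 2 induced libraries 36.9 and 45.1. The mean was thus higher with doxycycline in CPM and lower in TPM.

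TFE3 (ENSG00000068323.17, chrX:49028726-49043410, minus strand), the other part of the construct, gave 66.9 and 69.0 CPM in uninduced cells against 367 and 322 CPM in induced cells (log2 fold change 2.34, edgeR adjusted p = 4.37e-05). Its mean gained 277 CPM, while the mean of PRCC gained 5.22 CPM, and the upper end of the interval for PRCC allows a gain of 16.5 CPM. CPM is not corrected for length, and the lengths of the PRCC and TFE3 portions of the construct are not given in the labels. All identifiers of the tables are Ensembl transcripts and none stands for the construct, and where its reads were placed was not tested.

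The PRCC transcripts were looked at one by one for the same reason. PRCC-201, the protein-coding transcript of 7 exons, held 93.3% of the counts, with 595 and 597 counts in Doxy(-) and 595 and 789 in Doxy(+). The higher value of Doxy(+) 2 was therefore on the main transcript. In TPM PRCC-201 read 33.0 and 28.9 in Doxy(-) against 34.0 and 43.1 in Doxy(+), so the lower TPM mean of the gene lay on its other transcripts. PRCC-205 had 13.4 and 49.6 counts in Doxy(-) and none in Doxy(+), and PRCC-206 had 20.8 and 0 counts against 6.84 and 2.12. PRCC-207 was seen in Doxy(-) 2 alone, with 21.7 counts, and PRCC-202 and PRCC-204 stayed under 14 counts in every library. None of these minor transcripts was higher in both Doxy(+) libraries than in both Doxy(-) libraries. Only PRCC-205 and PRCC-204 of them entered the test over transcripts, and neither passed it. The others were below its count filter and have no test result.

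**Figure D5:**
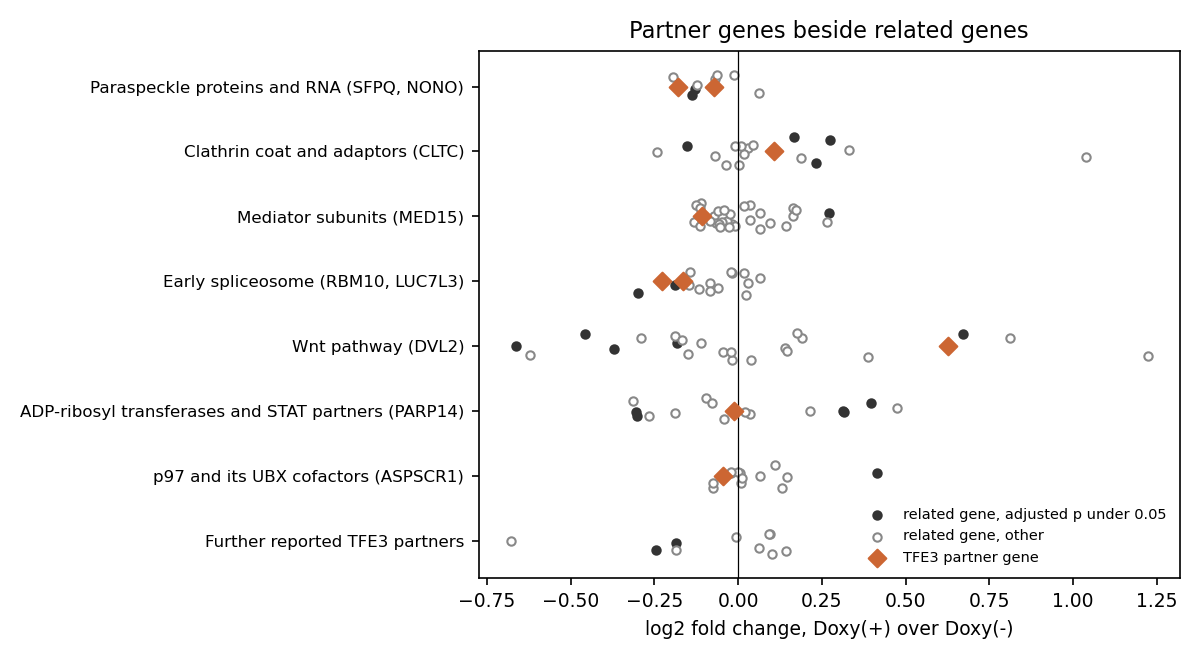
Log2 fold change, Doxy(+) over Doxy(-), of the tested genes in 8 lists, with 1 circle per related gene, filled where the adjusted p was under 0.05, and diamonds for the partner genes themselves. In the Wnt list DVL2 (0.63), LRP5 (0.67) and FZD7 (-0.66) passed, while FZD8 (1.22) and FZD3 (0.81), at low counts, lie farther from 0 and did not. AXIN2 (-0.62), also at low counts, lies nearly as far from 0 and did not pass.

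The 10 partners are spread over 5 chromosomes, with 4 on chromosome 17 (DVL2, LUC7L3, CLTC and ASPSCR1), of which DVL2 and CLTC rose and LUC7L3 fell. RBM10 and NONO are on the X chromosome with TFE3, 1.84 Mb and 22.2 Mb from it. Of 10 further genes reported as TFE3 partners that could be tested, none rose and 2 fell, beside 9.81% and 9.59% of all genes, with a median log2 fold change of 0.03. EWSR1, an RNA-binding protein of the FET family, read 340 and 347 CPM without doxycycline against 287 and 292 CPM with it (log2 fold change -0.24, edgeR adjusted p = 0.00453). RBMX, a nuclear ribonucleoprotein, was at 318 and 320 CPM against 274 and 286 CPM (log2 fold change -0.19, edgeR adjusted p = 0.0162).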

How the data were processed

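Polyadenylated RNA was sequenced from 2 Doxy(-) and 2 Doxy(+) libraries of HK-2 cells, made with a stranded TruSeq kit. The study's methods name Trim Galore 0.6.6, cutadapt 2.5, STAR 2.7.9a, RSEM, DESeq2 and hg38, but the deposited tables have the columns of kallisto, for 180253 Ensembl transcripts. The tool that made them, its release and its use of strand are not given in the sources used here. The deposited estimated counts are unnormalised expected counts, which a quantifier divides between transcripts that share reads, and the deposited TPM values are scaled for transcript length by the authors' quantifier.

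Transcripts were assigned through GENCODE release 44 (150691 identifiers, 83.6%), and counts and TPM were summed per symbol. Rounded counts went into edgeR 4.0.16 (R 4.3.3), through glmQLFit and glmQLFTest with TMM, filterByExpr and group as the only term, with Benjamini-Hochberg adjustment over 13542 genes or 51663 transcripts. The study's methods use DESeq2, which was run as an alternative (1.42.0), as was limma 3.58.1 on log2(TPM + 1). CPM values use TMM-scaled totals. The standard error of a log2 fold change is that implied by the F statistic. Intervals are at 95%. Counting error is not given separately, and the reads carry no molecular identifiers. The libraries of a group differed by more than sampling noise, with a chi-square per degree of freedom of 4.02 in Doxy(-) and 2.88 in Doxy(+). The fit was tested on simulated data.

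The partner genes and the lists of related genes were chosen with earlier results of these data known. Named genes are the 10 partners, TFE3, the 2 list members with the smallest p, and others said to be chosen after their values were seen: paralogues, overlapping PTRH2, and the remaining list members that passed. E-boxes were searched in RefSeq windows of 300 bases. For 1 list member the result, and with it the count of its list, is not reported here.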

Additional observations from a re-analysis of the deposited data

Results flagged for a closer look

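The deposited tables held 2 identifiers without an annotation entry whose length and counts equalled those of TFE3 transcripts, and which were left out of the values of TFE3 above. They came to 4.70 CPM in Doxy(-) and to 95.5 CPM in Doxy(+), as means over 2 libraries, with 57.6 and 72.4 estimated counts in the Doxy(-) libraries against 1255.2 and 1254.6 in the Doxy(+) libraries. They are given here because this signal lay outside the comparison of the report and above the level of the control libraries. With them TFE3 was at 42.9 TPM in Doxy(-) and at 409.9 TPM in Doxy(+), and with the copies of every gene added 7 partner genes were above TFE3 in both Doxy(-) libraries and 1 in both Doxy(+) libraries.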

How the results depend on the processing

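DVL2 passed under all 14 alternatives, with log2 fold changes between 0.60 and 0.66, and TFE3 under all 14, between 2.24 and 2.87. Under limma on log2(TPM + 1), log2(TPM + 0.1) and unfiltered TPM, and under counts rescaled by transcript length, the genes higher in Doxy(+) numbered 600, 596, 136 and 461 in place of 1328, the genes lower 311, 303, 72 and 336 in place of 1299, and those past the fold limit 151, 172, 70 and 177 in place of 267. In each of these 4 the partner genes that passed came to 1, and the log2 fold changes were -0.15, -0.15, -0.15 and -0.19 for SFPQ, 0.19, 0.19, 0.19 and 0.15 for CLTC, and -0.15, -0.15, -0.15 and -0.19 for LUC7L3, none of which passed. PRCC reversed in the same 4, to -0.15, -0.15, -0.15 and -0.19, and PARP14 reversed to 0.012, 0.013 and 0.012 in the 3 limma settings. Leaving out each library in turn gave 672 to 1250 genes higher, 596 to 1327 lower and 1 to 4 partner genes passing, with -0.24 to -0.12 for SFPQ, 0.093 to 0.12 for CLTC, -0.18 to -0.16 for LUC7L3, -0.029 to 0.30 for PRCC and -0.087 to 0.060 for PARP14. With the copies added, RBM10 passed at -0.22. The partner genes above TFE3 in both Doxy(+) libraries numbered 8 with protein-coding transcripts alone and 2 by CPM, which is not corrected for length. By CPM, 6 in place of 8 were above it in Doxy(-), with PRCC at 0.717 and DVL2 at 0.996 times TFE3 on average. The cause of these shifts was not tested.

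With the library number as a replicate block, 1282 genes were higher and 1261 lower, CLTC did not pass (0.11, edgeR adjusted p = 0.0567), and the block changed no other call on a partner gene. The libraries of 1 number did not deviate together (r = -0.032 over genes), so the number is not known to pair them. With 2 libraries in a group, the calls on CLTC, SFPQ and LUC7L3 rest on adjusted p between 0.0302 and 0.0390, and the levels of minor transcripts rest on few counts.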

Other observations

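Since DVL2 was the partner gene with 3 E-boxes near its start, the other tested genes were counted by the number of CACGTG hexamers in their RefSeq windows, a count added after the values of DVL2 had been seen. Of 10430 tested genes with a window, 1058 were higher in Doxy(+) and 1045 lower. Without the hexamer these shares were 8.68% and 10.2% (9110 genes), with 1 hexamer 17.9% and 8.86% (1185 genes), and with 2 hexamers 39.5% and 5.26% (114 genes). With 3 or more, 10 of 21 genes were higher and 1 was lower, and their median log2 fold change was 0.41, with DVL2 itself among the 10. The largest log2 fold changes among the 21 were those of AMDHD2, an enzyme of amino sugar metabolism, with 1.49 (edgeR adjusted p = 0.000172), HSPBAP1 with 1.16 (edgeR adjusted p = 0.00123) and WASHC2C, a subunit of an endosomal actin-regulating complex, with 0.83 (edgeR adjusted p = 0.000504). LAMP1, a protein of the lysosomal membrane, had the most hexamers, 6, and a log2 fold change of 0.58 (edgeR adjusted p = 0.000388). APEX1, a DNA repair enzyme, fell by 0.17 on the log2 scale (edgeR adjusted p = 0.0252). These genes were chosen after their values were seen, the shares are a description, and base composition or other features of the windows were not compared.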
